A study of Homo sapiens with 25 samples.

Results

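The messenger RNA of 10 amino acid transporters of the plasma membrane was followed through 9 combinations of culture day and histidine level in Jurkat, a line grown from a human T-cell leukaemia. The members were given as gene symbols, with no threshold on these values, and are 10 of the 36755 genes in the deposited table: SLC7A5, SLC3A2, SLC7A6, SLC43A1, SLC7A1, SLC38A5, SLC38A1, SLC38A2, SLC1A4 and SLC1A5. All 10 had enough signal to be tested, as had 22994 genes in all. Cells were grown in medium with histidine lowered to a stated percentage of its full level, and RNA from all cells of a culture was sequenced. The day 6 groups were 12.5% histidine with 2 libraries and 25%, 50% and 100% with 3 libraries each. The day 3 groups were 0%, 12.5%, 25% and 50% with 3 libraries each and 100% with 2, numbered replicates 1 and 3. The histidine concentration that 100% stands for is not given in the labels. Whether replicates came from separate cultures is not stated in the labels, and the p-values therefore rest on a spread between libraries that could be technical.

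Histidine cannot be made by human cells and enters through several carriers with overlapping substrates. SLC7A5 (LAT1) exchanges large neutral amino acids, histidine among them, and reaches the cell surface only as a pair with the heavy chain SLC3A2 (CD98), which also pairs with the cationic and neutral exchanger SLC7A6. SLC38A5 couples uptake of histidine, glutamine and asparagine to sodium, and SLC43A1 (LAT3) passes branched-chain amino acids and phenylalanine without a heavy chain. When an amino acid runs short, uncharged tRNA activates the kinase GCN2, and translation then favours ATF4, a factor that binds C/EBP-ATF response elements. In activated T cells MYC, which binds E-boxes, is known to raise several of the same carriers.

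The promoters of the members differ in which of these sequences they hold, and 5 of them are shown: SLC38A5, SLC43A1 and SLC7A5 as changed genes with an E-box, and SLC7A1 and SLC1A4 as changed genes with a C/EBP-ATF response element. Each line gives 280 bases, the 250 before the annotated start and the first 30 of the transcript, from RefSeq on GRCh38.p14, with the motif in capitals. SLC38A5 is chrX:48470231-48470510, SLC43A1 chr11:57515673-57515952, SLC7A5 chr16:87869478-87869757 and SLC7A1 chr13:29595659-29595938, all on the minus strand. SLC1A4, from the second of its windows, is chr2:64989149-64989428 on the plus strand.
SLC38A5: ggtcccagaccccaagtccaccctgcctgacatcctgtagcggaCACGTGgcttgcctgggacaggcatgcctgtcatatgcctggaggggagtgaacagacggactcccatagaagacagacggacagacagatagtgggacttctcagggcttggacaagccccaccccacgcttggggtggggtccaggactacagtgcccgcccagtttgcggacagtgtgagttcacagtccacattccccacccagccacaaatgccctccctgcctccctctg
SLC43A1: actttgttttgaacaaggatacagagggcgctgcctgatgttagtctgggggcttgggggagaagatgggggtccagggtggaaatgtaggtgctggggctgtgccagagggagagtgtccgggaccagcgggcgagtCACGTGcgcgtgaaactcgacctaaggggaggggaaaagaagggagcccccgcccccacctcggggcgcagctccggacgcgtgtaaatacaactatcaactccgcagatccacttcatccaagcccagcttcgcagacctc
SLC7A5: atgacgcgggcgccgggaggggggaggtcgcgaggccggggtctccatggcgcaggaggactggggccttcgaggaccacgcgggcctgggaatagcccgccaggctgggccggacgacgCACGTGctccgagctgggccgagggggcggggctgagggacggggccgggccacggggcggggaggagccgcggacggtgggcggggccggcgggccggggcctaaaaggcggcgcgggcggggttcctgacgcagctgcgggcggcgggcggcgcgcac
SLC7A1: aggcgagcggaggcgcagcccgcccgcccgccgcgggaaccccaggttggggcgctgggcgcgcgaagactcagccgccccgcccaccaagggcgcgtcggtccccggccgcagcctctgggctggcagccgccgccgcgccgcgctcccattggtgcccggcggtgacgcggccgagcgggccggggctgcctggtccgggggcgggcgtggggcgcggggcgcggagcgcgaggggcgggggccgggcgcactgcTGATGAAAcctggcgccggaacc
SLC1A4: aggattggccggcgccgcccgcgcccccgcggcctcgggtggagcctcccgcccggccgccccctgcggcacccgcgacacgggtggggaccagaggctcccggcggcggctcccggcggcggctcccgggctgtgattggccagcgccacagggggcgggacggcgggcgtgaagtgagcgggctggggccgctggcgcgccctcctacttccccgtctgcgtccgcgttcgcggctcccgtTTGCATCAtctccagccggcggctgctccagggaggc

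In SLC38A5, SLC43A1 and SLC7A5 the capitals mark the E-box CACGTG, a palindrome, whose first base lies 206, 112 and 130 bases before the start. In SLC7A1 and SLC1A4 they mark the core of the C/EBP-ATF response element, TGATGNAA. It reads on the gene's own strand in SLC7A1, from base 8 of the transcript. In SLC1A4 it reads on the other strand, with its first base 7 bases before the start. SLC3A2 and SLC1A5, changed genes that were called higher against 100%, also hold this motif and are not shown. In SLC3A2 the match begins at base 38 of the transcript, past the bases printed. Both strands of the full windows of 300 bases, which reach 50 bases past the start, were searched, and the motifs do not overlap in the printed windows. TGATGNAA was found in 5 of the 17 windows of the members (29.4%), belonging to SLC3A2, SLC7A1, SLC1A4, SLC1A5 and SLC38A1, against 3.62% of all 35116 promoter windows. CACGTG was found in 4 of the 17 (23.5%), belonging to SLC7A5, SLC1A5, SLC38A5 and SLC43A1, against 7.26% of all windows. Members with several windows had more chances of a match, and a match describes letters and not binding.

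Values below are normalized counts, the deposited gene counts after the submitters' scaling between libraries, and differences are on the scale of log2(value + 1), tested with limma over all 22994 genes with Benjamini-Hochberg adjustment. The libraries summed to between 18.44 and 21.38 mega-counts after normalization, which does not give the sequencing depth. The sum of 10 T-lineage markers was 50487 to 80007 over the libraries, though CD28 and PTCRA of this list measured at most 93.43 and 136. The sum was 76802 to 80007 at 0% on day 3 against 51886 to 55093 at 100% on day 3. Markers of other cell types were also present, summing to 206 to 442.4 normalized counts for 5 epithelial genes, 217.7 to 675.5 for 4 B-cell genes, 125.8 to 341 for 4 myeloid genes and 1733 to 12263 for 6 fibroblast genes. EPCAM, MS4A1 and CSF1R of these lists were at 0 in 20, 19 and 13 of the 25 libraries, while KRT8, KRT18, CD79A, LYZ and COL1A1 were at 0 in none. The B-cell sum, mostly CD79A, was 558.6 to 675.5 at 0%, 12.5% and 25% on day 3 against 217.7 to 269 at 100%, and the fibroblast sum was 1733 to 3078 at 50% on day 6 against 4629 to 10297 at 100%.

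The sum of 4 erythroid genes was 3526 to 5029 at 50% on day 3 against 277.8 to 519.9 at 100%. It followed the library number in the labels. It was 3526 to 5029 in the 9 libraries whose number leaves a remainder of 3, 4 or 5 when divided by 8. In the other 16 libraries it was 191.4 to 3974. The 3974 was in replicate 2 of 25% on day 6, and libraries with a remainder of 0, 1, 2 or 7 reached at most 556. The remainder was therefore tried as a term in the fit. A sum of 5 heart muscle genes reached 37908 in replicate 2 of 25% histidine on day 6, which also had the highest fibroblast sum (12263). MYH6, MYH7 and ACTC1 of this list reached 12194, 18207 and 7458, while TNNT2 and TNNI3 measured at most 24.94 and 24.37 in any library. The high sum thus rests on part of the list. Values without replicate 2 of 25% on day 6 are given where they bear on a member. Any part of the T-lineage, B-cell and fibroblast transcripts in the members' results was not tested. The RNA is a bulk measure, so fewer cells of a type and less RNA per cell cannot be told apart. All comparisons against 100% within a day share the same 100% libraries.

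At 50% histidine no transporter passed the test against 100% on either day. On day 6, limma called 0 of the 10 members and left 0 at an unadjusted p under 0.05, beside 0.00435% of all tested genes called and 1098 at an unadjusted p under 0.05. The 95% intervals of the 10 log2 differences on day 6 lay within -0.31 and 0.3. On day 3 limma likewise called 0 of the 10 members, with 0 at an unadjusted p under 0.05, beside 0% of all genes called and 1075 at an unadjusted p under 0.05. Their intervals lay within -0.24 and 0.26. The difference of this effect between the days was called for 0 members by limma, with 0 at an unadjusted p under 0.05, and for 0.00435% of all genes, with 906 at an unadjusted p under 0.05.

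Below 50% the members moved in different directions. On day 6, 1 member was higher and 4 were lower at 25% than at 100% (20.2% of all genes were called), and 2 were higher and 4 lower at 12.5% (21.9% of all genes). On day 3, 1 was higher and 3 lower at 25% (19.5% of all genes), 4 higher and 1 lower at 12.5% (26.2%), and 4 higher and 2 lower at 0% (31%). The median log2 difference of the 10 members stayed near that of all genes, at 0.00281 against -0.00371 for 12.5% on day 6 and 0.0518 against -0.0162 for 0% on day 3. The split at 25% on day 3 depended on scaling, with 4 higher of 5 called after total-sum scaling and 4 higher of 6 under quantile normalization. Of all genes called there 50.24% were higher, with 63.31% after total-sum scaling and 52.99% under quantile normalization.

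**Figure D1:**
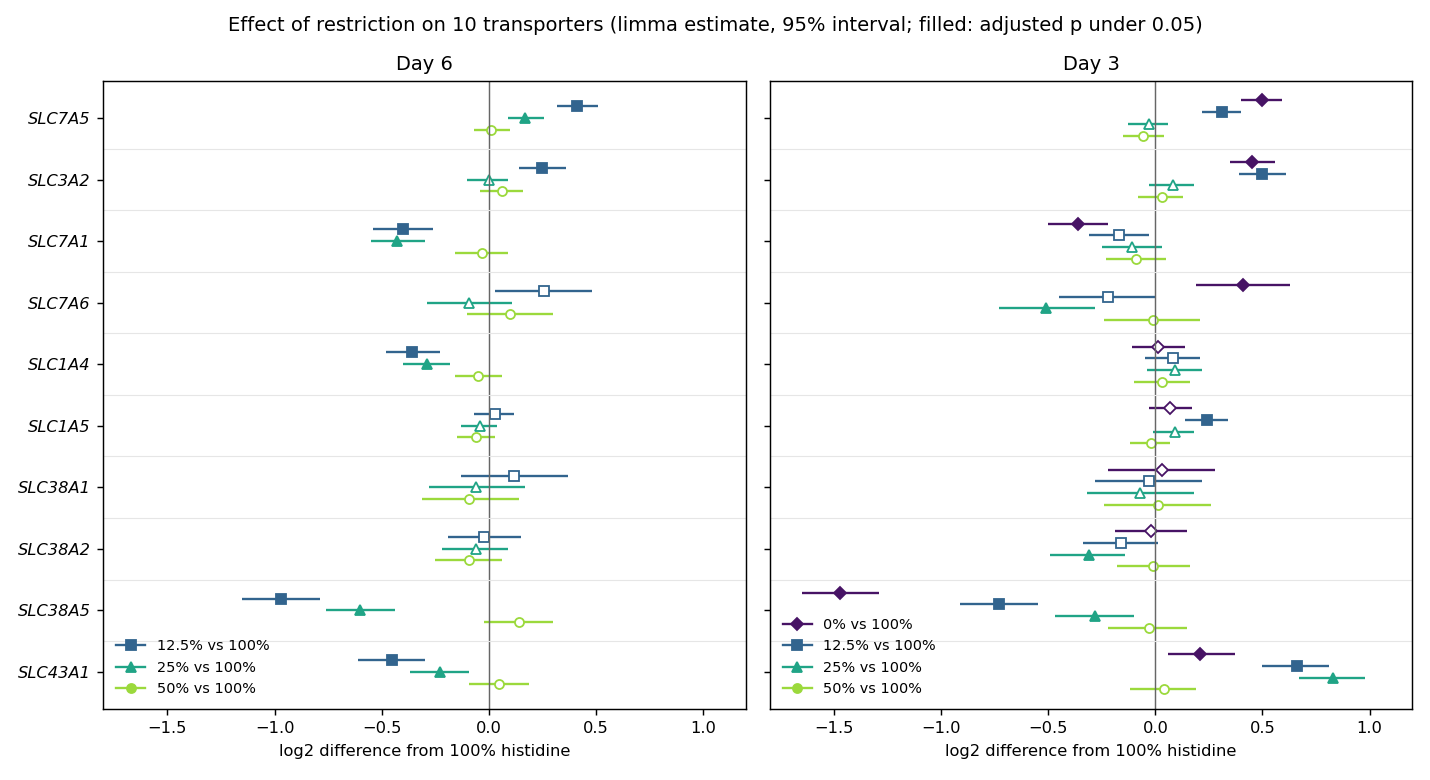
Log2 difference of each transporter from 100% histidine with its 95% interval (limma), on day 6 at left and day 3 at right; colours and shapes give the histidine level and filled symbols an adjusted p under 0.05. SLC38A5 lies to the left on both days, down to -1.47 at 0% on day 3, while SLC43A1 lies to the left on day 6 and to the right on day 3.

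SLC38A5, the sodium-coupled carrier of histidine and glutamine (ENSG00000017483.14, chrX:48458537-48470256), fell most of the 10 members. On day 6 it measured 461 and 447.4 normalized counts at 12.5% histidine, 565, 599.7 and 596.5 at 25%, 944.6, 980.6 and 1029 at 50%, and 828.2, 988.4 and 865.9 at 100%. The libraries at 12.5% and 25% all lay below those at 50% and 100%, which overlapped. On day 3 it measured 388, 390.2 and 425 at 0%, 706.8, 649.6 and 652.6 at 12.5%, 923.5, 880.9 and 939.2 at 25%, 1125, 1069 and 1067 at 50%, and 1086 and 1142 at 100%. Levels on day 3 formed separate steps below 50%, and only 50% and 100% overlapped.

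The fall of SLC38A5 at 12.5% on day 6 was 1.97-fold (log2 -0.97, SE 0.088, adjusted p = 4.86e-09) and at 25% 1.52-fold (-0.6, SE 0.079, adjusted p = 2.08e-06). On day 3 it was 2.78-fold at 0% (-1.47, SE 0.088, adjusted p = 5.63e-13) and 1.66-fold at 12.5% (-0.73, SE 0.088, adjusted p = 3.43e-07). The fall at 25% on day 3 was smaller (-0.28, SE 0.088, adjusted p = 0.0216). It did not pass when 1 day 3 library was left out, be it replicate 1 of 100% (adjusted p = 0.0574), replicate 3 of 100% (0.177) or replicate 2 of 25% (0.0738), nor under 4 other settings. SLC38A5 was lower in every restricted group below 50%, and the size of its fall was not called different between the days at 12.5% (-0.24, 95% interval -0.49 to 0.02, adjusted p = 0.375) or 25% (-0.32, interval -0.56 to -0.08, adjusted p = 0.136). Without the day 6 library with the high heart muscle sum the fall at 25% on day 6 was -0.62 (adjusted p = 1.12e-05).

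SLC43A1, the facilitated carrier of branched-chain amino acids (ENSG00000149150.8, chr11:57484534-57515786), moved in opposite directions on the 2 days. The day 6 libraries gave 1226 and 1183 normalized counts at 12.5%, 1392, 1455 and 1377 at 25%, 1589, 1867 and 1682 at 50%, and 1734, 1560 and 1664 at 100%. All 5 restricted libraries below 50% lay under the 100% libraries. The day 3 libraries gave 1237, 1227 and 1207 at 0%, 1713, 1521 and 1768 at 12.5%, 1880, 1864 and 1870 at 25%, 1104, 1096 and 1049 at 50%, and 1055 in both libraries at 100%. All 9 libraries below 50% on day 3 lay above the 50% and 100% libraries, and those at 25% were the highest of that day.

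At 12.5% SLC43A1 was 1.37-fold lower than at 100% on day 6 (log2 -0.45, SE 0.076, adjusted p = 6.03e-05) and 1.58-fold higher on day 3 (0.66, SE 0.076, adjusted p = 2.1e-07). At 25% it was lower on day 6 (-0.23, SE 0.068, adjusted p = 0.0161) and 1.77-fold higher on day 3 (0.83, SE 0.076, adjusted p = 7.2e-09). The day 6 call at 25% was lost without replicate 1 (adjusted p = 0.0866) or replicate 3 (0.0512) of 100%, without replicate 3 of 25% (0.0542), with the library number modulo 8 in the fit (0.0532) and with the compared groups alone (0.0675). At 0% on day 3 the rise was 1.16-fold (0.21, SE 0.076, adjusted p = 0.0338) and was lost in 9 of 14 alternatives, among them the omission of any 1 of the 5 libraries, with adjusted p between 0.051 and 0.127. At full histidine SLC43A1 was already 1.57-fold higher on day 6 than on day 3 (0.65, SE 0.076, adjusted p = 1.93e-06). Its effects on the 2 days differed by -1.11 at 12.5% (SE 0.11, adjusted p = 2.59e-07) and -1.06 at 25% (SE 0.1, adjusted p = 1.66e-07), differences that include this higher level at 100% on day 6.

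**Figure D2:**
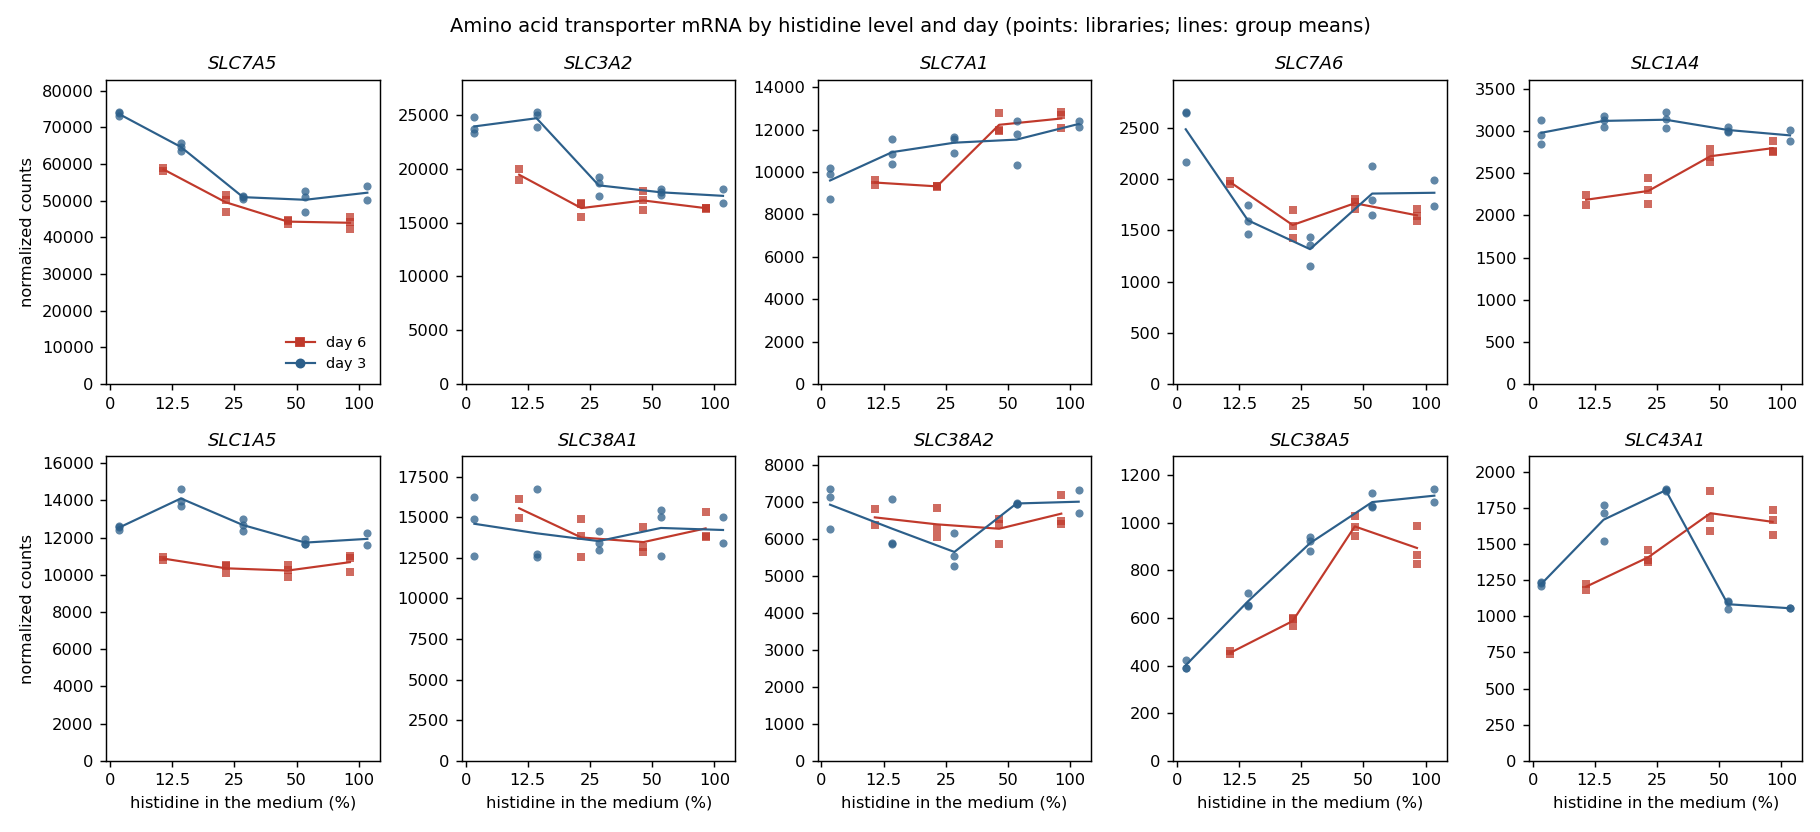
Normalized counts of the 10 transporters against the histidine level (equally spaced, not to scale), with day 6 as red squares and day 3 as blue circles; points are libraries and lines join group means. The means of SLC43A1 run 1205, 1408, 1713 and 1652 from 12.5% to 100% on day 6, whereas on day 3 they run 1223, 1667, 1871, 1083 and 1055 from 0% to 100%.

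SLC7A5, the light chain of the LAT1 exchanger (ENSG00000103257.8, chr16:87830023-87869488), rose as histidine fell on both days. Its day 6 values were 58159 and 58872 normalized counts at 12.5%, 50283, 51625 and 46794 at 25%, 44647, 43676 and 44543 at 50%, and 42216, 45466 and 44221 at 100%. Its day 3 values were 74059, 73933 and 72981 at 0%, 64730, 65704 and 63454 at 12.5%, 50973, 50566 and 51319 at 25%, 47035, 52729 and 50938 at 50%, and 50211 and 54126 at 100%. On day 3 the groups at 0% and 12.5% stood clear of the rest, and the other 3 overlapped, while on day 6 the 25% libraries were already above both 50% and 100%.

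SLC7A5 was 1.33-fold higher at 12.5% (log2 0.41, SE 0.046, adjusted p = 1.58e-07) and 1.13-fold higher at 25% on day 6 (0.17, SE 0.041, adjusted p = 0.00295). On day 3 it was 1.41-fold higher at 0% (0.5, SE 0.046, adjusted p = 2.29e-09) and 1.24-fold higher at 12.5% (0.31, SE 0.046, adjusted p = 8.25e-06), and at 25% the difference was -0.03 (SE 0.046, adjusted p = 0.715). Its rise at 25% on day 6 was not called different from that on day 3 (0.21, 95% interval 0.08 to 0.33, adjusted p = 0.0538). SLC7A5 ranked between 6 and 23 among all genes of a library. Quantile normalization, which replaces each value by the mean over libraries at its rank, gave 0.3 for 0% on day 3 (adjusted p = 0.0698) and 0.38 for 25% on day 3 (adjusted p = 0.0362). Its pseudogenes SLC7A5P1 and SLC7A5P2 measured at most 20.94 and 54.31 normalized counts.

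SLC3A2, the heavy chain of that exchanger (ENSG00000168003.16, chr11:62856102-62888875), rose at the lowest levels. On day 6 the values were 19931 and 18946 normalized counts at 12.5%, 16737, 16780 and 15506 at 25%, 16184, 17896 and 17067 at 50%, and 16350, 16281 and 16386 at 100%. On day 3 the values were 24789, 23644 and 23341 at 0%, 24942, 23878 and 25230 at 12.5%, 19249, 17487 and 18628 at 25%, 18082, 17829 and 17514 at 50%, and 16811 and 18146 at 100%. The 12.5% libraries on both days, and the 0% libraries on day 3, lay above all others of their day.

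The rise of SLC3A2 was 1.19-fold at 12.5% on day 6 (log2 0.25, SE 0.052, adjusted p = 0.000684). The day 3 rise was 1.37-fold at 0% (0.45, SE 0.052, adjusted p = 9.92e-08) and 1.41-fold at 12.5% (0.5, SE 0.052, adjusted p = 3.43e-08), and 0% differed from 12.5% by -0.05 (95% interval -0.14 to 0.05). Quantile normalization gave -0.21 for 0% against 12.5%, which passed (adjusted p = 2.87e-05). At 25% on day 3 SLC3A2 differed by 0.08 (adjusted p = 0.352), but by 0.16 after total-sum scaling (0.0215) and 0.21 under quantile normalization (0.000125), where it passed. The log2 ratio of SLC7A5 to SLC3A2 averaged between 1.38 and 1.62 in the 9 groups. Its day 6 libraries ran from 1.54 to 1.64 at 12.5% and from 1.59 to 1.62 at 25%. Those at 50% and 100% on day 6 ran lower, from 1.29 to 1.46 and from 1.37 to 1.48. On day 3 the ratio was 1.58 to 1.64 at 0%, 1.33 to 1.46 at 12.5% and 1.58 at 100%. Across the 9 group means the 2 chains had a Pearson correlation of 0.92. It is given as a description over groups whose values come from the same libraries.

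SLC7A6, the other light chain that uses SLC3A2 (ENSG00000103064.14, chr16:68264516-68301823), had its lowest and highest levels on day 3. On day 6 it measured 1949 and 1983 normalized counts at 12.5%, 1536, 1421 and 1694 at 25%, 1808, 1710 and 1770 at 50%, and 1590, 1636 and 1708 at 100%. No day 6 difference from 100% passed, with 0.26 at 12.5% (SE 0.11, adjusted p = 0.0982) and -0.09 at 25%. On day 3 it measured 2161, 2648 and 2640 at 0%, 1585, 1741 and 1463 at 12.5%, 1357, 1433 and 1155 at 25%, 1650, 1794 and 2126 at 50%, and 1989 and 1740 at 100%. All 25% libraries of day 3 lay below, and all 0% libraries above, both 100% libraries.

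On day 3 SLC7A6 fell 1.42-fold at 25% (log2 -0.51, SE 0.11, adjusted p = 0.00117) and rose 1.33-fold at 0% (0.41, SE 0.11, adjusted p = 0.00451). The rise did not pass without replicate 3 of 100% on day 3 (0.31, adjusted p = 0.107). At 0% it was 1.56-fold higher than at 12.5% on day 3 (0.63, SE 0.098, adjusted p = 1.81e-05). SLC7A6OS overlaps it on the opposite strand and measured 818.7 to 1422.5 normalized counts. Whether strand was used in counting is not given in the sources used here, so reads of the overlap may belong to either gene.

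SLC7A1 (CAT-1), which carries arginine, lysine and ornithine (ENSG00000139514.12, chr13:29509410-29595688), was lower under restriction on both days. The day 6 libraries gave 9601 and 9405 normalized counts at 12.5%, 9323, 9344 and 9300 at 25%, 12788, 11969 and 11915 at 50%, and 12811, 12673 and 12080 at 100%. The libraries fell into a lower set at 12.5% and 25% and a higher set at 50% and 100%, with no overlap between them. The day 3 libraries gave 8714, 10175 and 9911 at 0%, 10850, 11573 and 10388 at 12.5%, 11568, 10912 and 11664 at 25%, 10346, 12424 and 11811 at 50%, and 12402 and 12126 at 100%. Day 3 levels declined gradually and neighbouring groups overlapped down to 12.5%.

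SLC7A1 fell 1.32-fold at 12.5% (log2 -0.4, SE 0.067, adjusted p = 6.95e-05) and 1.34-fold at 25% on day 6 (-0.43, SE 0.06, adjusted p = 7.09e-06). At 0% on day 3 it fell 1.28-fold (-0.36, SE 0.067, adjusted p = 0.000146), and the difference at 12.5% was -0.17 (SE 0.067, adjusted p = 0.0717). The effect at 25% differed between the days by -0.32 (SE 0.09, adjusted p = 0.0404), a call lost in 12 of 20 alternatives. Without the day 6 library with the high heart muscle sum it was -0.32 with an adjusted p of 0.0578. The fall at 25% on day 6 was then -0.43 (adjusted p = 4.43e-05).

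SLC1A4 (ASCT1), a sodium-dependent exchanger of alanine, serine and cysteine (ENSG00000115902.10, chr2:64988477-65023865), fell on day 6 and, under the submitters' scaling, did not pass on day 3. Its day 6 values were 2127 and 2245 normalized counts at 12.5%, 2297, 2438 and 2136 at 25%, 2783, 2695 and 2628 at 50%, and 2755, 2760 and 2877 at 100%. All libraries at 12.5% and 25% lay below all those at 50% and 100%. Its day 3 values were 2956, 3134 and 2850 at 0%, 3048, 3184 and 3130 at 12.5%, 3042, 3140 and 3222 at 25%, 2995, 3053 and 2991 at 50%, and 3010 and 2888 at 100%. All 5 day 3 groups lay between 2850 and 3222.

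The fall of SLC1A4 on day 6 was 1.28-fold at 12.5% (log2 -0.36, SE 0.062, adjusted p = 9.87e-05) and 1.22-fold at 25% (-0.29, SE 0.056, adjusted p = 0.000332). On day 3 the difference was 0.01 at 0% (95% interval -0.11 to 0.14), 0.08 at 12.5% (-0.05 to 0.21) and 0.09 at 25% (-0.04 to 0.22). After total-sum scaling the day 3 difference at 25% was 0.17 and passed (adjusted p = 0.0461). The effects differed between the days by -0.44 at 12.5% (SE 0.088, adjusted p = 0.00419) and -0.38 at 25% (SE 0.083, adjusted p = 0.00641). Without the day 6 library with the high heart muscle sum the value at 25% was -0.42 (adjusted p = 0.00236).

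SLC1A5 (ASCT2), a related exchanger that carries glutamine (ENSG00000105281.12, chr19:46774883-46788594), passed against 100% in 1 group under the submitters' scaling. At 25% on day 3 it differed by 0.09 (adjusted p = 0.234). It passed there at 0.17 after total-sum scaling (0.0089) and 0.16 under quantile normalization (0.011). On day 6 the values were 10970 and 10768 normalized counts at 12.5%, 10455, 10521 and 10069 at 25%, 9882, 10262 and 10538 at 50%, and 10164, 10995 and 10875 at 100%, with no difference from 100% called. On day 3 the values were 12628, 12391 and 12563 at 0%, 14611, 13706 and 13991 at 12.5%, 13007, 12328 and 12680 at 25%, 11636, 11901 and 11651 at 50%, and 11598 and 12262 at 100%. The 12.5% libraries of day 3 lay above all others, 1.18-fold over 100% (log2 0.24, SE 0.047, adjusted p = 0.000289), and 0% was below 12.5% (-0.17, SE 0.042, adjusted p = 0.00402). The log2 ratio of SLC1A5 to SLC1A4 was 2.31 at 12.5% and 1.93 at 100% on day 6, and 2.18 at 12.5% and 2.02 at 100% on day 3.

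SLC38A1 and SLC38A2 (SNAT1 and SNAT2), sodium-coupled carriers of small neutral amino acids and glutamine, had the narrowest ranges. SLC38A1 (ENSG00000111371.15, chr12:46183063-46270017) had group means between 13471 at 50% on day 6 and 15555 at 12.5% on day 6, and none of its 16 comparisons passed. Its libraries at 12.5% on day 3 alone ran from 12549 to 16744. SLC38A2 (ENSG00000134294.13, chr12:46358189-46372867), the textbook SNAT induced by amino acid shortage in other cells, differed from 100% by -0.02 at 12.5% on day 6 (95% interval -0.19 to 0.15) and -0.02 at 0% on day 3 (interval -0.19 to 0.15). It measured 5525, 6142 and 5259 at 25% on day 3 against 7318 and 6681 at 100% on day 3 (log2 -0.31, SE 0.084, adjusted p = 0.0082). That call was lost without replicate 1 of 100% (-0.25, adjusted p = 0.134), under both other scalings (0.0605 and 0.0532) and with the library number modulo 8 in the fit (0.0973).

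Neighbouring histidine levels showed where the steps lay. On day 6 the step of 25% against 50% held 1 higher and 4 lower members (20.9% of all genes were called): SLC7A5 rose by 0.16, while SLC38A5 fell by 0.74, SLC7A1 by 0.39, SLC43A1 by 0.28 and SLC1A4 by 0.24. The day 6 step of 12.5% against 25% held 2 higher and 1 lower (0.874% of all genes), namely SLC7A5 (0.24), SLC3A2 (0.25) and SLC38A5 (-0.37), each of them lost without replicate 1 and also without replicate 2 of 12.5% (adjusted p between 0.0619 and 0.338). SLC38A5 was also lost there without replicate 1 (0.0537), 2 (0.117) or 3 (0.0678) of 25%. On day 3 the step of 25% against 50% held 1 higher and 3 lower (23.8% of all genes), with SLC43A1 at 0.79, SLC7A6 at -0.5, SLC38A2 at -0.3 and SLC38A5 at -0.25. This split also turned with scaling, to 5 higher of 6 called after total-sum scaling and 4 higher of 6 under quantile normalization, with SLC7A5, SLC3A2 and SLC1A5 among the higher under both. Of all genes called at this step 47.71% were higher, with 63.99% after total-sum scaling and 52.36% under quantile normalization. The day 3 step of 12.5% against 25% held 3 higher and 1 lower (8.22% of all genes), with SLC3A2 at 0.42, SLC7A5 at 0.34, SLC1A5 at 0.15 and SLC38A5 at -0.45. Here 2 of 4 called were higher after total-sum scaling and 1 of 3 under quantile normalization, with SLC1A5 lost under both, SLC7A5 lost under quantile normalization (0.18, adjusted p = 0.424) and SLC43A1 called lower under both. Of all genes called 65.8% were higher, with 35.35% after total-sum scaling and 50% under quantile normalization. The day 3 step of 0% against 12.5% held 2 higher and 4 lower (21% of all genes), with SLC7A6 at 0.63, SLC7A5 at 0.19, SLC38A5 at -0.74, SLC43A1 at -0.44, SLC7A1 at -0.19 and SLC1A5 at -0.17. Under quantile normalization SLC3A2 was also called lower at this step (-0.21, adjusted p = 2.87e-05), and SLC7A5 was no longer called (-0.25, 0.122).

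Leaving out 1 library also ended smaller steps on day 3. The SLC38A5 step of 25% against 50% had an adjusted p of 0.083 without replicate 2 of 25% and of 0.078 without replicate 1 of 50%. The SLC1A5 step of 12.5% against 25% did not pass without replicate 1 (0.121) or 3 (0.0534) of 12.5%, or without replicate 2 (0.112) or 3 (0.0659) of 25%. The SLC7A1 step of 0% against 12.5% did not pass without replicate 1 of 0% (0.194), or without replicate 1 (0.0513) or 2 (0.134) of 12.5%.

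At full histidine, 4 members differed between day 6 and day 3 (8.66% of all genes were called), 1 higher and 3 lower on day 6. SLC43A1 averaged 1652 ± 87.65 normalized counts on day 6 (SD, n = 3) against 1055 ± 0.5648 on day 3 (n = 2). SLC7A5 was lower by 0.25 on the log2 scale on day 6 (difference -0.25, SE 0.046, adjusted p = 0.000798), SLC38A5 by 0.32 (difference -0.32, SE 0.088, adjusted p = 0.0206) and SLC1A5 by 0.16 (difference -0.16, SE 0.047, adjusted p = 0.0321). Without replicate 3 of 100% on day 3 the adjusted p was 0.0672 for SLC7A5, 0.236 for SLC38A5 and 0.389 for SLC1A5, and 1 member remained called. SLC38A5 also did not pass without replicate 1 (0.108) or 3 (0.0715) of 100% on day 6, nor SLC1A5 without replicate 1 of 100% on day 6 (0.167). Total-sum scaling moved the median of all genes by 0.114 in this comparison and lost SLC38A5 (-0.2, adjusted p = 0.167) and SLC1A5 (-0.04, 0.65). Quantile normalization lost SLC7A5 (-0.02, adjusted p = 0.969), gave SLC1A5 0.01 (0.941) and called SLC7A1 higher (0.25, 0.0374). SLC43A1 kept its call under both.

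Taking the effect of restriction on day 6 minus that on day 3, 3 members were called at 25%, all lower (4.72% of all genes were called), and 2 at 12.5%, both lower (3.64% of all genes). They were SLC43A1 and SLC1A4 at both levels and SLC7A1 at 25%. The intervals of the other members were widest for SLC38A1 and SLC7A6, at -0.2 to 0.51 and 0.16 to 0.8 for 12.5%. limma left 8 of the 10 members at 25% and 6 at 12.5% at an unadjusted p under 0.05. Of all 22994 genes it left 3966 and 3518. Some uncalled members passed under alternatives. SLC3A2 at 12.5% (-0.25, interval -0.4 to -0.1, adjusted p = 0.0585) passed in 4 of 19. SLC1A5 at 12.5% (-0.22, interval -0.35 to -0.08, adjusted p = 0.0777) passed in 2 of 19, and SLC7A5 at 25% in 5 of 20.

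**Figure D3:**
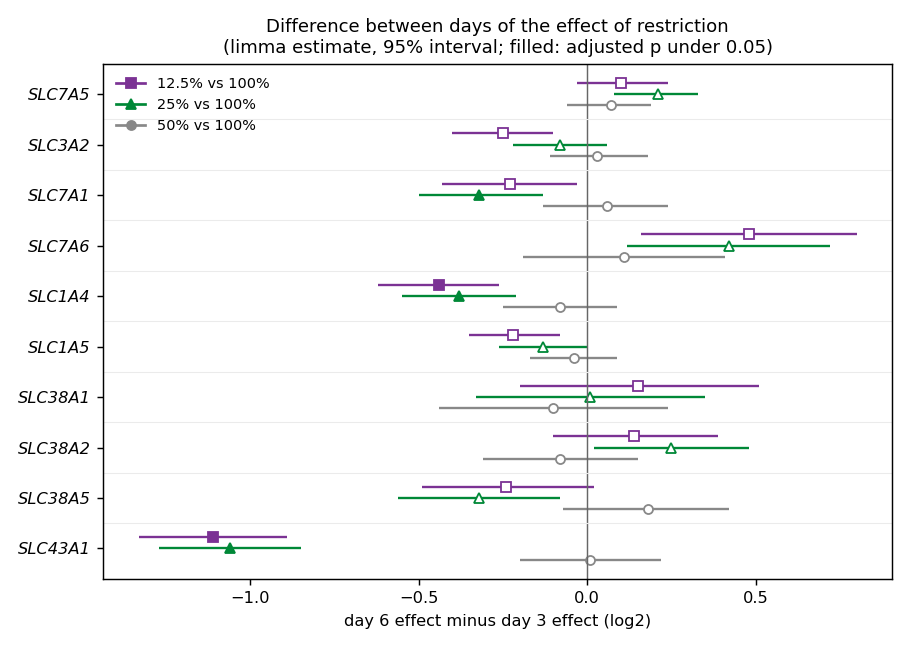
Effect of restriction on day 6 minus that on day 3 in log2 units with 95% intervals (limma) for the 10 transporters, by histidine level; filled symbols have an adjusted p under 0.05. SLC43A1 stands at -1.11 and -1.06, while all 10 intervals at 50% include 0.

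The members with the widest range of group means were SLC38A5 (2.78-fold from the lowest to the highest group), SLC7A6 (1.89-fold) and SLC43A1 (1.77-fold), and the narrowest were SLC38A2 (1.24-fold) and SLC38A1 (1.15-fold). With the 9 groups ordered by their means, 6 of the 8 neighbouring pairs of SLC38A5 did not overlap, against 4 of 8 for SLC7A5, 3 of 8 for SLC43A1 and SLC1A5, and 0 of 8 for SLC38A1 and SLC38A2. The share of such pairs over all genes was not computed. The groups hold 2 or 3 libraries and were ordered by the means themselves, so these counts only describe. Among 13086 genes, those most like SLC38A5 over the 9 group means were TUFT1 (Pearson r 0.991), FAM124A (0.989) and TWSG1 (0.989). Most like SLC43A1 were TNFSF8 (0.961), C1QTNF6 (0.954) and ACAP1 (0.951), and most like SLC7A6 were TTYH3 (0.958), TTC34 (0.948) and C6orf120 (0.946). Between members, SLC7A1 and SLC38A5 had r 0.89 and SLC38A2 and SLC43A1 -0.84. These correlations describe 9 means of the same libraries and carry no p.

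Of 19 other amino acid transporters of the plasma membrane, 18 were in the table and 14 could be tested. At 12.5% against 100% on day 6, 1 was higher and 3 were lower (21.9% of all genes were called), and at 0% against 100% on day 3, 3 were higher and 2 lower (31% of all genes). SLC7A11, the cystine and glutamate exchanger, rose on both days, by 0.91 at 12.5% on day 6 (adjusted p = 5.24e-07) and by 0.8 at 0% on day 3 (adjusted p = 1.57e-06). SLC16A10, a carrier of aromatic amino acids, fell in the same comparisons, with -0.55 (adjusted p = 0.00942) and -0.94 (adjusted p = 2.33e-05). SLC6A9, a glycine transporter, averaged 680.8 ± 67.06 at 12.5% (SD, n = 2) against 1147 ± 67.37 at 100% (n = 3) on day 6, and 1347 ± 29.28 at 0% (n = 3) against 862.8 ± 79.15 at 100% (n = 2) on day 3. Its effect at 12.5%, the level present on both days, differed between them by -0.72 (adjusted p = 0.00603). The other genes called were SLC7A7 on day 6 and SLC43A2 and SLC1A3 on day 3, named here after their values were seen.

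Of 7 lysosomal transporters, 6 were tested. At 12.5% on day 6, where 21.9% of all genes were called, 1 was higher, SLC38A7, a glutamine carrier (0.39, adjusted p = 0.0133). At 0% on day 3, where 31% of all genes were called, 3 were higher and 0 lower: SLC38A9, an arginine sensor of the lysosome (0.63, adjusted p = 0.000361), SLC38A7 (0.6, adjusted p = 0.000153) and CTNS, the cystine exporter (0.46, adjusted p = 0.0123). Elsewhere on day 3, 1 was higher at 12.5% against 100% (26.2% of all genes) and 3 at 0% against 12.5% (21%). Lower were 1 at 25% against 50% on day 6 (20.9%) and 1 in the difference between days at 25% (4.72%).

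**Figure D4:**
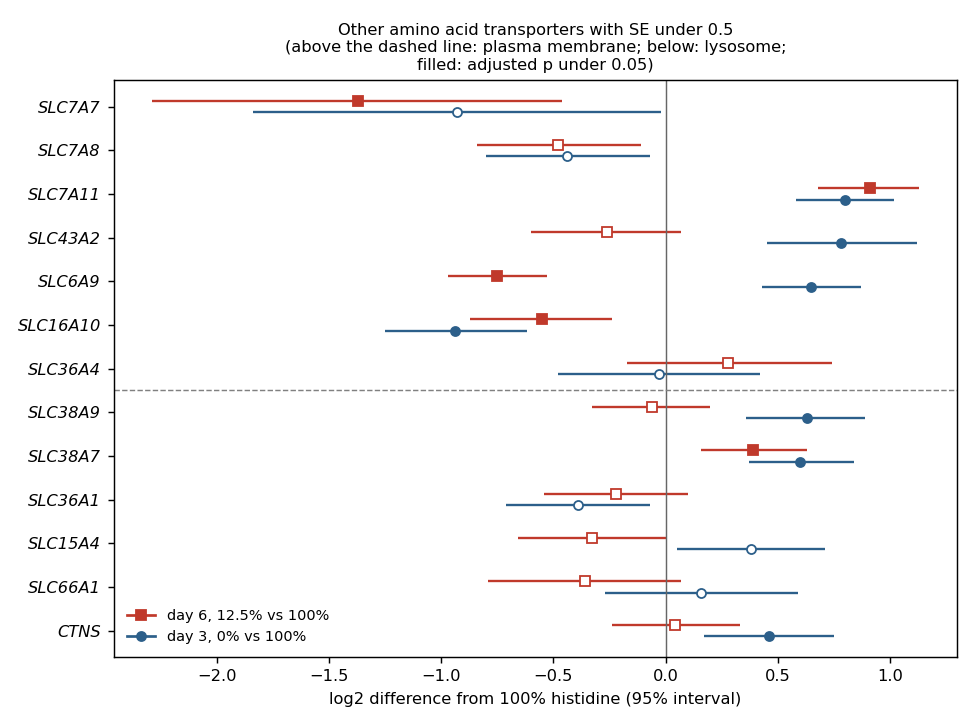
Log2 difference from 100% histidine with 95% intervals for 13 other amino acid transporters with an SE under 0.5, with 7 of the plasma membrane above the dashed line and 6 of the lysosome below; red squares are 12.5% on day 6, blue circles 0% on day 3, and filled symbols have an adjusted p under 0.05. SLC7A11 lies right of 0 on both days, and SLC6A9 lies left on day 6 and right on day 3.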

How the data were processed

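RNA of 25 Jurkat libraries was sequenced after strand-specific library preparation, per the labels' protocols. FastQC 0.11.9, kallisto 0.50.1, DESeq2 1.44.0 and the build GRCh38 are named in the submitters' processing notes. The annotation, and any use of strand in counting, is not given in the sources used here. As for units, the authors deposited gene counts scaled between libraries, a normalized signal. Between 55.3% and 75.4% of a library's low values (up to 20 reads) were whole reads within 0.05, so reads were not recovered, the depth is unknown and no counting interval is given.

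Groups came from the labels. log2(value + 1) of genes with at least 10 in at least 2 libraries was modelled by group in limma 3.58.1 (R 4.3.3), with the prior variance trended on intensity and robust moderation, for 16 comparisons, and called at an adjusted p under 0.05. The fit was also run on normal log2 values simulated under its own assumptions, which cannot show whether those hold for these libraries. Coordinates are GENCODE 29, GRCh38. All 10 members matched RefSeq promoters.

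The members and lists were chosen with earlier results of these data known. Besides the 10 members, the text names the 3 smallest adjusted p of the other plasma membrane carriers in the widest comparison of each day. It also names the lysosomal carriers called in those comparisons, and the 3 genes most like each of the 3 most variable members. Alternatives were pseudocounts of 0.5 and 10, no filter, total-sum and quantile scaling, plain moderation, only the compared groups, a replicate block, the library number modulo 8, and each library left out.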

Additional observations from a re-analysis of the deposited data

Results flagged for a closer look

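The effect of restriction against 100% histidine differed between day 6 and day 3 for 3 transporters, by limma's test of the difference itself with Benjamini-Hochberg adjustment over all genes. For SLC43A1 the difference was -1.06 at 25% (adjusted p = 1.66e-07) and -1.11 at 12.5% (2.59e-07). For SLC1A4 it was -0.38 at 25% (0.00641) and -0.44 at 12.5% (0.00419). For SLC7A1 it was -0.32 at 25% (0.0404). Leaving out any 1 library kept the calls of SLC43A1 and SLC1A4, while that of SLC7A1 was lost in 9 of these omissions.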

How the results depend on the processing

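Of 57 called member differences over the 16 comparisons, 34 passed under every alternative run and 23 were lost under at least 1, and 23 others passed under at least 1. With the library number modulo 8 in the fit, the genes called on day 6 were 3012 at 25% against 100%, 2432 at 25% against 50%, 32 at 12.5% against 25% (0 members) and 0 at 50% against 100%. On day 3 they were 2350 at 25% against 100% (2 members), 4725 at 0% against 100%, 3183 at 25% against 50%, 238 at 12.5% against 25% (2 members) and 2723 at 0% against 12.5%. For day 6 against day 3 at 100% it gave 720 genes (2 members), and for the differences between days 407 at 25%, 549 at 12.5% and 0 at 50%. Fitting only the compared groups gave 4 genes on day 6 and 5 on day 3 at 50%, 12 genes and 0 members at 12.5% against 25% on day 6, 3 members at 25% against 50% on day 6, 2 for day 6 against day 3, and 0 genes for the difference at 50%. Plain moderation gave 113 genes and 1 member at 12.5% against 25% on day 6, 0 genes at 50% against 100% on day 6 and 510 for the difference at 12.5%. Total-sum scaling gave 2 members for day 6 against day 3 and 4 and 5 for the differences at 12.5% and 25%. Quantile normalization gave 1 member at 12.5% against 25% on day 6, 5 for the difference at 25%, and 1232 genes at 12.5% against 25% on day 3. A pseudocount of 10 gave 0 genes for the difference at 50%. The cause of these changes was not tested. Where a member count stands without a gene count, the share of all genes called is not given, and the 2 cannot be compared.

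Quantile normalization reversed SLC1A5 on day 6 against day 3 at 100% (0.01, adjusted p = 0.941), SLC7A5 at 0% against 12.5% on day 3 (-0.25, 0.122) and SLC7A5 at 25% against 100% on day 3 (0.38, 0.0362). Of all called genes, the share higher at 25% on day 3 was 50.24% against 100% and 47.71% against 50%, and 63.31% and 63.99% under total-sum scaling. At 12.5% against 25% on day 3 it was 65.8%, with 35.35% after total-sum and 50% after quantile scaling. For day 6 against day 3 it was 33.8%, with 69.95% after total-sum and 51.75% after quantile scaling. For the difference at 25% it was 57.46%, 32.89% and 42.78% under these scalings.

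With 1 library left out, the genes called ranged over 3175 to 4414 at 12.5% against 100% on day 6 (lowest without replicate 2 of 12.5%), 74 to 322 at 12.5% against 25% on day 6 (0 to 2 members), 0 to 17 at 50% against 100% on day 6, 2954 to 3934 at 25% against 100% on day 3 (2 to 4 members, lowest without replicate 1 of 100%), 1135 to 1451 at 12.5% against 25% on day 3 and 0 to 5 at 50% against 100% on day 3. For day 6 against day 3 they ranged over 588 to 1874 (1 to 4 members), with both lowest values without replicate 3 of 100% on day 3. For the differences between days they ranged over 379 to 756 at 12.5%, lowest without replicate 2 of 12.5% on day 6, 654 to 1057 at 25%, lowest without replicate 3 of 100% on day 3, and 0 to 5 at 50%.

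Whether replicate numbers pair the libraries could not be decided. The 92 pairs of equal number had correlations of their deviations between -0.106 and 0.192 (median 0.0015), and 1 was over 0.1, that of replicate 3 of 100% and 50% on day 6. The 185 pairs of unequal number lay between -0.152 and 0.106 (median 0). Deviations within groups of 2 or 3 libraries must balance, so these values cannot show that pairing is absent. With the replicate number as a block, SLC38A5 at 12.5% against 25% on day 6 was -0.36 (adjusted p = 0.0689), the SLC7A1 difference at 25% was -0.3 (0.0606), and the SLC7A5 difference at 25% was 0.22 (0.0386). The block changed no other member's call. The unknown depth and groups of 2 libraries limit what could be detected.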
